A study of Mus musculus with 12 samples.

Results

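The choroid plexus genes described here are 10 of the 38986 genes counted in teratomas of mouse embryonic stem (ES) cells, chosen by name because each marks or serves the choroid plexus epithelium. They are Ttr, Rbp4, Folr1, Prlr, Kl, Clic6, Kcnj13, Slc4a5, Aqp1 and Otx2, and all 10 were measured above the low-count filter. The choroid plexus is a folded epithelium in the brain ventricles that secretes cerebrospinal fluid. It arises from the dorsal midline of the neural tube, where Otx2 is needed for its formation, and its mature cells are known for very high Ttr, the carrier of thyroxine. Its apical and basal membranes hold the water channel, ion transporters and receptors through which water, salts, folate and hormones pass into the fluid. Several of the genes serve other tissues too, among them liver (Ttr, Rbp4), kidney (Kl, Aqp1), endothelium and red blood cells (Aqp1), retinal pigment epithelium (Kcnj13) and early neural tube (Otx2).

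The 12 libraries came from whole teratomas grown from the mouse ES cell line R1, with 3 libraries in each of 4 groups. Every line had been stably transduced with the lentiviral vector pEZ-LV235, in which a CAG promoter active in most cell types drives the insert. The groups were the empty vector (ET), wild-type Dnmt3L (WT) and Dnmt3L with arginine in place of a lysine at either of its acetylation sites studied (K238R and K412R). Dnmt3L is a cofactor of the de novo DNA methyltransferases, and an arginine at these positions cannot be acetylated. For each line 5000000 cells grown in serum and LIF were placed under the skin of 8-week-old male immunodeficient NOD-PrkdcEM1 mice, and the tumors were collected at day 21. A teratoma is a mixture of tissues that also holds vessels and blood of the host, so fewer cells of a type and less RNA per cell cannot be told apart in any value below.

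Depth was even, from 16957677 to 18546100 estimated counts per library, and all levels are counts scaled to a library total of 1000000 (CPM). Dnmt3l itself read 165 to 204 CPM in WT and 26 to 38.9 CPM in K412R, against 0.649 to 7.62 CPM in ET. In the libraries labelled K238R it read 0.543 to 1.89 CPM, no higher than in ET, so that label is not borne out by the transcript. ET replicate 2 stood farthest from the other libraries of its group, with a mean root-mean-square difference of 0.54 on the log2 scale over the genes tested against 0.314 to 0.486 for the other 11, and WT replicate 1 was the farthest in WT at 0.432. Results that rest on either are given with and without them.

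The levels bore out the label "choroid plexus" only in part. Ttr lay between 0.767 and 1.36 CPM in 9 of the 12 libraries, which is 13 to 24 counts per library. Of 40 further genes of this epithelium, 37 passed the low-count filter, and the other 3 were at or near 0, with Kcne2, a potassium channel subunit of its apical membrane, at 1 to 5 counts per library, Tmem72 at 0 to 12 and the lactate transporter gene Slc16a8 at 0 to 2. Others were detected in every library, among them Sostdc1, a secreted inhibitor of BMP and Wnt signals, at 26 to 105 counts, Calml4 at 196 to 419 and Enpp2, the secreted enzyme autotaxin, at 1562 to 4832. The genes named in this check were chosen after their values were seen. The 10 genes are therefore described by name, and not as the readout of a tissue shown to be present.

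Promoter sequences were found in the RefSeq table (GRCm38.p6) for 7 of the 10 genes, in 13 windows of the 250 bases before a transcription start. Ttr, Folr1 and Clic6 had no entry. The windows below are those of the pairs with an entry whose levels followed each other most closely across the libraries, Rbp4 with Otx2 and Kl with Prlr, each taken before the most upstream listed start and free of annotated exons. They lie at chr19:38125322-38125571 (minus strand, Rbp4), chr14:48667645-48667894 (minus strand, Otx2), chr5:150952357-150952606 (plus strand, Kl) and chr15:10176988-10177237 (plus strand, Prlr). Each is written 5′ to 3′ on the strand of its gene, with capitals marking a match to a searched motif.
Rbp4 promoter: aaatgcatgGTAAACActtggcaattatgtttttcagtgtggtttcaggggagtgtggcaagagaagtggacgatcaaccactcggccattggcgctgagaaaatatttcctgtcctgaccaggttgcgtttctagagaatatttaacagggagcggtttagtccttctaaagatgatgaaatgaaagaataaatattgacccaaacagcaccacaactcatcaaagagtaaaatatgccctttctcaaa
Otx2 promoter: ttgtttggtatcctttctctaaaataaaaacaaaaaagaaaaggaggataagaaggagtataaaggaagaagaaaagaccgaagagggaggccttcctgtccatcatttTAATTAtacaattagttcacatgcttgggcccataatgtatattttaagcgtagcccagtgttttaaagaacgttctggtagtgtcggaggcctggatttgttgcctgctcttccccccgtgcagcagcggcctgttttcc
Kl promoter: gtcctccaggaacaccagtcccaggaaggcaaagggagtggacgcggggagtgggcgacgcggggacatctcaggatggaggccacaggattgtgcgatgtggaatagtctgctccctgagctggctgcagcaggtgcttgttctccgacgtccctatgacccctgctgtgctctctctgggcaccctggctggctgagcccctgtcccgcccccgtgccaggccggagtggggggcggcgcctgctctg
Prlr promoter: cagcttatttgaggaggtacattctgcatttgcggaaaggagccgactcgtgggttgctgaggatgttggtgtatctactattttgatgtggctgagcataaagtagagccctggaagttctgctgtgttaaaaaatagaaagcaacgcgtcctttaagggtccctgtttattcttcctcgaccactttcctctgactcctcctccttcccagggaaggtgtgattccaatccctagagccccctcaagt

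The motifs searched, on both strands, were TAATCC, the letters that Otx2-type homeodomain proteins prefer, TAATTA, a general homeodomain core that is its own reverse complement, and TGTTTAC, a forkhead motif. The Rbp4 window held TGTTTAC once, on the opposite strand, starting 241 bases before the start, and the Otx2 window held TAATTA once, 141 bases before the start. The Kl and Prlr windows printed held none of the 3. Over all 13 windows TAATCC occurred in 1, before an inner start of Otx2, TAATTA in 2, both of Otx2, and TGTTTAC in 2, that of Rbp4 and a window before an inner start of Prlr. Among all 32851 windows listed 6.25% held TAATCC, 4.84% held TAATTA and 3.17% held TGTTTAC. A match describes letters only.

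Per kilobase of the longest coding transcript, Otx2 had the highest level of the 10 genes, with a median of 12.6 CPM per kb over the 12 libraries. Folr1 (7.43 CPM per kb) and Aqp1 (7.07 CPM per kb) came next, and Folr1 exceeded Aqp1 in 8 of 12 libraries, so their order was not fixed. Rbp4 followed at 4.77, Clic6 at 2.77, Kcnj13 at 1.47 and Ttr at 1.04 CPM per kb. Prlr, Slc4a5 and Kl were lowest at 0.307, 0.248 and 0.233 CPM per kb, and the last pair was in this order in only 5 of 12 libraries. By mean CPM the genes ranked between place 6756 (Otx2) and place 16011 (Kl) of 38986.

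**Figure D1:**
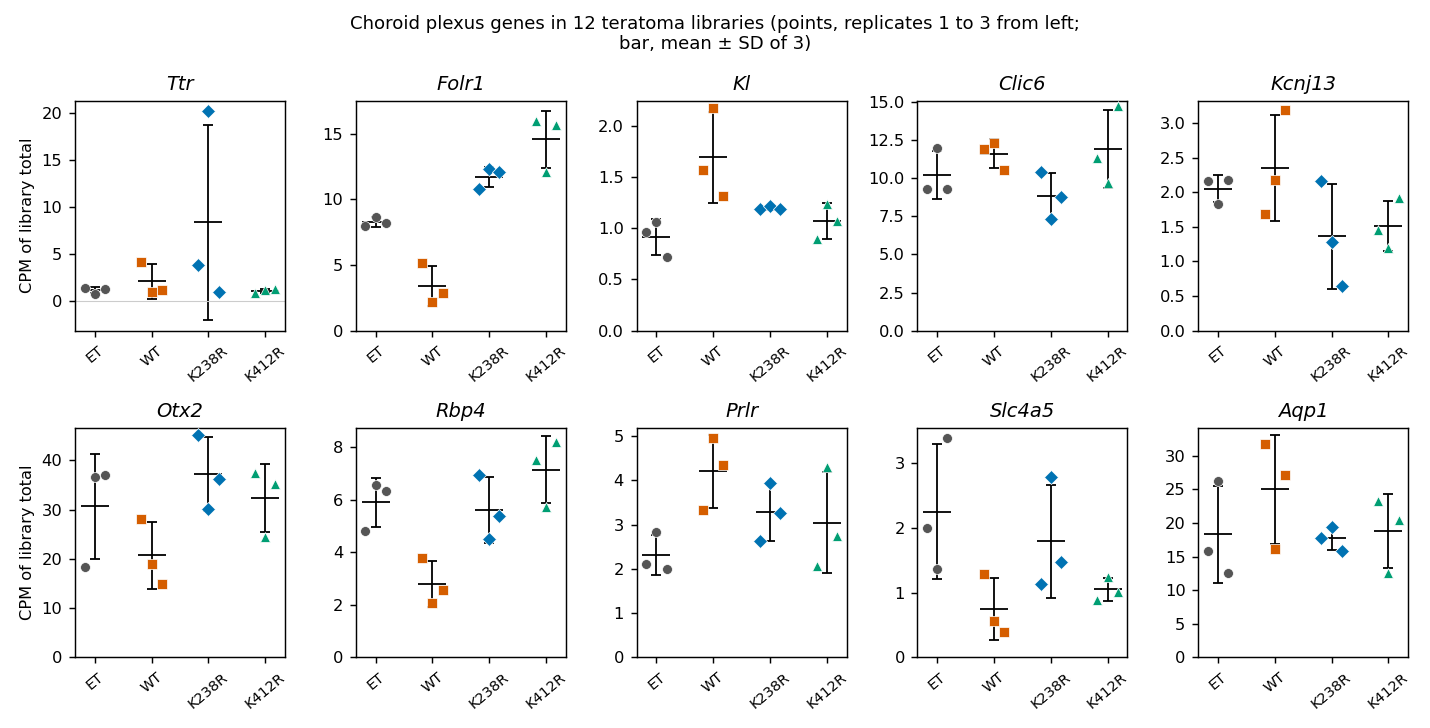
CPM of each of the 10 genes (y axis, linear, own scale per gene) in the 3 libraries of ET, WT, K238R as labelled and K412R (x axis), with points for libraries and bars for the mean ± SD of 3. Folr1 and Rbp4 are lowest in all 3 WT libraries, Kl is highest there, and Ttr is raised to 20.2 CPM in a single library labelled K238R.

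Among the carriers, Ttr was set by 1 library. Ttr read 1.36, 0.767 and 1.33 CPM in ET and 4.22, 0.948 and 1.14 CPM in WT. In the other groups it read 3.88, 20.2 and 1.03 CPM under the K238R label and 0.891, 1.19 and 1.29 CPM under K412R. Replicate 2 of K238R stood alone with 364 counts (95% Clopper-Pearson interval 18.2 to 22.4 CPM, counting error only), WT replicate 1 and K238R replicate 1 were raised to about 4 CPM, and the other 9 were alike. The group means were 1.16 ± 0.337 CPM in ET, 2.1 ± 1.83 in WT, 8.38 ± 10.4 in K238R and 1.12 ± 0.207 in K412R (SD, n = 3), so the SD exceeded the mean in K238R. In the edgeR fit Ttr differed from WT by 1.98 ± 0.85 (log2 fold change ± SE) in K238R, with an adjusted p of 0.26, and this fell to 0.19 without K238R replicate 2 and rose to 2.95 without WT replicate 1. For WT against ET the log2 fold change of 0.87 ± 0.91 (adjusted p 0.53) turned to -0.10 without WT replicate 1.

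In K238R replicate 2, the library with high Ttr, Kcne2, Tmem72, Sostdc1, Calml4 and Enpp2 lay within the ranges of the other libraries. These were picked from the longer list after their values were seen. Of the 10 genes, Clic6 was at its lowest in this library, at 7.33 CPM. Kcne2 read 0.222 CPM (0.0556 to 0.295 over all 12 libraries), Tmem72 0.5 (0 to 0.669), Sostdc1 2.5 (1.41 to 5.85), Calml4 18.9 (10.9 to 23.5) and Enpp2 137 (89.1 to 269). Ttr is also made by liver, yolk sac and retinal pigment epithelium. In the same library Alb, the main liver protein of plasma, read 0.0556 CPM (0 to 0.281 over all libraries), Apoa1, an apolipoprotein of liver and yolk sac, 2.56 CPM (1.45 to 3.73), and Rpe65, the retinoid isomerase of the retinal pigment epithelium, had no count. The part of any of these tissues in the Ttr level was not tested.

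Rbp4, the plasma carrier of retinol, was lowest in the WT libraries. Rbp4 read 4.83, 6.55 and 6.34 CPM in ET, 3.77, 2.06 and 2.57 in WT, 6.96, 4.5 and 5.37 in K238R, and 7.52, 5.71 and 8.2 in K412R. All 3 WT libraries lay below all 9 others. The means were 5.91 ± 0.935 CPM in ET, 2.8 ± 0.875 in WT, 5.61 ± 1.24 in K238R and 7.14 ± 1.28 in K412R (SD, n = 3). Rbp4 rose 2.52-fold in K412R against WT, a log2 fold change of 1.33 ± 0.25 with an edgeR adjusted p of 0.0267. The change of -1.05 ± 0.25 in WT against ET (2.08-fold lower, adjusted p 0.101) and that of 0.96 ± 0.25 in K238R against WT (adjusted p 0.106) missed the threshold of 0.05 on the edgeR adjusted p. DESeq2 called both, at adjusted p of 0.00762 and 0.0169, where it called 11% and 4.27% of all genes.

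Of the receptors, Folr1, the folate receptor that moves folate into the cerebrospinal fluid, changed most clearly. Folr1 read 7.96, 8.67 and 8.23 CPM in ET, 5.12, 2.17 and 2.85 in WT, 10.8, 12.3 and 12.1 in K238R, and 16, 12.1 and 15.7 in K412R. The WT libraries were again below all 9 others, and ET lay between WT and both K238R and K412R without overlap. Folr1 averaged 8.29 ± 0.358 CPM in ET, 3.38 ± 1.54 in WT, 11.7 ± 0.787 in K238R and 14.6 ± 2.17 in K412R (SD, n = 3). It rose 3.38-fold in K238R against WT (log2 fold change 1.76 ± 0.24, edgeR adjusted p 0.0226) and 4.27-fold in K412R against WT (2.09 ± 0.24, adjusted p 0.00456). In WT against ET it was 2.41-fold lower (-1.27 ± 0.24), with an unadjusted p of 2.36e-04 that became an adjusted p of 0.099 in edgeR. DESeq2 called this change at an adjusted p of 1.61e-04, where it called 11% of all genes.

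In rising order of mean Folr1 the groups were WT, ET, K238R and K412R. K412R and K238R overlapped, with a log2 fold change of 0.34 ± 0.23 (edgeR adjusted p 0.632). K238R against ET came to 0.49 ± 0.23 (adjusted p 0.805) and K412R against ET to 0.82 ± 0.23 (adjusted p 0.426), and neither passed, although the libraries did not overlap in either case. The study used Folr1 and Rbp4 as neural markers in these teratomas, so the direction of this pair is not independent evidence about the 10 genes.

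The calls on this pair depended on single libraries to different degrees. Folr1 in K412R against WT kept an adjusted p of 6.21e-04 to 0.042 in edgeR when any of the 12 libraries was left out. Folr1 in K238R against WT was called in 6 of those 12 fits, and its adjusted p reached 0.139 without WT replicate 3 and 0.12 without K238R replicate 3. The other 4 losses were at 0.105 without WT replicate 2, 0.0749 and 0.0679 without K238R replicates 1 and 2, and 0.0534 without K412R replicate 3. Rbp4 in K412R against WT was called in 8 of 12 fits and lost without K412R replicate 1 (0.112), K412R replicate 3 (0.11), WT replicate 2 (0.111) or WT replicate 3 (0.139).

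Prlr and Kl went the other way, highest in WT. Prlr, the prolactin receptor, read 2.1, 2.83 and 2 CPM in ET, 3.32, 4.96 and 4.34 in WT, 2.64, 3.94 and 3.26 in K238R, and 2.06, 4.3 and 2.75 in K412R. Kl, which encodes klotho, the coreceptor of the hormone Fgf23, read 0.967, 1.06 and 0.723 CPM in ET, 1.57, 2.17 and 1.31 in WT, 1.19, 1.22 and 1.19 in K238R, and 0.891, 1.24 and 1.07 in K412R. The WT libraries lay above the ET libraries for both genes, and above all 9 others for Kl, which had only 13 to 39 counts per library. In WT against ET, Prlr differed by 0.89 ± 0.31 and Kl by 0.90 ± 0.29 on the log2 scale, with edgeR adjusted p of 0.117 and 0.112. Against WT, Kl differed by -0.67 ± 0.29 in K412R and -0.53 ± 0.28 in K238R (adjusted p 0.192 and 0.342), and Prlr by -0.49 and -0.40 (adjusted p 0.349 and 0.477). Mean levels of Prlr were 2.31 ± 0.452 CPM in ET and 4.2 ± 0.83 in WT, and those of Kl 0.917 ± 0.175 and 1.69 ± 0.442 (SD, n = 3).

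None of the channels and transporters passed the adjusted threshold in the edgeR fit of all 12 libraries. DESeq2 called Slc4a5 in WT against ET (-1.57 ± 0.55, adjusted p 0.0447), where it called 11% of all genes. Slc4a5, a sodium bicarbonate cotransporter, had its lowest mean in WT. Slc4a5 read 1.99, 1.36 and 3.39 CPM in ET, 1.29, 0.558 and 0.399 in WT, 1.13, 2.78 and 1.47 in K238R, and 0.891, 1.24 and 1.01 in K412R. The WT libraries were below the ET libraries, by a narrow margin between WT replicate 1 and ET replicate 2, and rested on 23, 10 and 7 counts. The log2 fold change was -1.56 ± 0.51 in WT against ET (2.96-fold lower, edgeR adjusted p 0.112), 1.22 ± 0.51 in K238R against WT (adjusted p 0.25) and 0.47 ± 0.52 in K412R against WT (adjusted p 0.603). Without WT replicate 1 these were -2.18 (adjusted p 0.0456), 1.83 (0.115) and 1.09 (0.229), without ET replicate 2 the first was -1.82 (0.022), and without K238R replicate 2 the second was 0.74 (0.4). K412R was also 2.13-fold below ET, without overlap, at an adjusted p of 0.628.

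Aqp1, the water channel of the apical membrane, read 15.9, 26.3 and 12.6 CPM in ET, 31.8, 16.1 and 27.1 in WT, 17.7, 19.4 and 15.9 in K238R, and 23.3, 12.6 and 20.5 in K412R. The groups overlapped, and WT against ET came to 0.48 ± 0.30 on the log2 scale (edgeR adjusted p 0.294). Without ET replicate 2 this was 0.84 (adjusted p 0.0467, where 31% of all genes were called), and without WT replicate 1 it was 0.29 (0.551). Aqp1 is also made by endothelium and red blood cells. The 8 endothelial markers summed to 246 to 277 CPM in WT against 154 to 283 in ET, 175 to 203 in K238R and 198 to 245 in K412R. The 7 erythroid genes summed to 930 to 1184 CPM in WT and to at most 803 in the other groups. No gene of either list passed the edgeR adjusted threshold in WT against ET, K238R against WT or K412R against WT. In that order 4, 5 and 2 of the 8 endothelial genes had an unadjusted p under 0.05 in edgeR. So did 2, 2 and 3 of the 5 erythroid genes tested, where all genes gave 29.1%, 17.6% and 22.8%. The part of either in the Aqp1 level was not tested.

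Clic6, an intracellular chloride channel protein abundant in this epithelium, had the smallest ratio of highest to lowest library of the 10 genes, 2.01, with 7.33 to 14.7 CPM over all libraries. It read 9.27, 12 and 9.28 CPM in ET, 11.9, 12.3 and 10.5 in WT, 10.4, 7.33 and 8.74 in K238R, and 11.3, 9.67 and 14.7 in K412R. The K238R libraries lay just below the WT libraries, a log2 fold change of -0.44 ± 0.17 with an edgeR adjusted p of 0.229. Kcnj13, the inwardly rectifying potassium channel Kir7.1, read 2.16, 1.83 and 2.17 CPM in ET, 1.69, 2.17 and 3.19 in WT, 2.16, 1.28 and 0.651 in K238R, and 1.45, 1.19 and 1.91 in K412R. Its groups overlapped in every comparison, and the log2 fold change of -0.83 ± 0.40 in K238R against WT had an adjusted p of 0.3.

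Otx2, the homeodomain transcription factor of the forebrain and midbrain and of the early choroid plexus, was also lower on average in WT than in the other groups. Otx2 read 18.4, 36.7 and 37.1 CPM in ET, 28.1, 19 and 14.9 in WT, 45.1, 30.1 and 36.2 in K238R, and 37.5, 24.5 and 35.3 in K412R. All K238R libraries lay above all WT libraries, while WT overlapped ET through ET replicate 1 and overlapped K412R through WT replicate 1 and K412R replicate 2. Against WT the log2 fold change was 0.81 ± 0.29 in K238R and 0.63 ± 0.29 in K412R (edgeR adjusted p 0.196 and 0.215), and in WT against ET it was -0.56 ± 0.29 (adjusted p 0.212).

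Counted over the 10 genes, no gene passed an adjusted p of 0.05 by edgeR in WT against ET, where 0.0489% of the 18405 genes tested did. The same comparison had 5 genes at an unadjusted p under 0.05, against 29.1% of all genes. DESeq2 called 3 at its adjusted threshold, Folr1, Rbp4 and Slc4a5, against 11% of all genes. Folr1, Rbp4 and Slc4a5, 3 of the 5, also differed at least 2-fold, the study's own criterion, against 6.08% of all genes. All 3 were lower, where 2.78% of all genes were, and Folr1 alone met this criterion without ET replicate 3. In 5 of the 10 genes the WT and ET libraries did not overlap, against 20.8% of all genes. The median log2 fold change was 0.22 for the 10 genes, with 6 above 0 and 4 below, and -0.01 for all genes.

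In K238R against WT, Folr1 alone passed the adjusted threshold in edgeR, which 0.174% of all genes passed and 0.114% passed upward. DESeq2 called Folr1 and Rbp4, against 4.27% of all genes. By the 2-fold criterion 3 genes were higher (Ttr, Folr1 and Slc4a5), against 5.28% of all genes in either direction and 1.68% upward. That count was 6 without WT replicate 1, and it was 1 (Folr1) without WT replicate 2 or without WT replicate 3. At an unadjusted p under 0.05 there were 6 genes, against 17.6% of all genes. The libraries did not overlap for 5 genes, against 24% of all genes. In K412R against WT, Folr1 and Rbp4 passed the adjusted threshold, against 2.02% of all genes and 1.33% upward. The same pair met the 2-fold criterion, against 5.05% of all genes and 1.66% upward, 4 genes had an unadjusted p under 0.05 (22.8% of all genes), and 3 did not overlap (31.1% of all genes). The median log2 fold change was 0.20 in K238R against WT and -0.21 in K412R against WT, with 5 genes above 0 and 5 below in both. These 3 comparisons share the WT libraries, so their values are set side by side only.

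**Figure D2:**
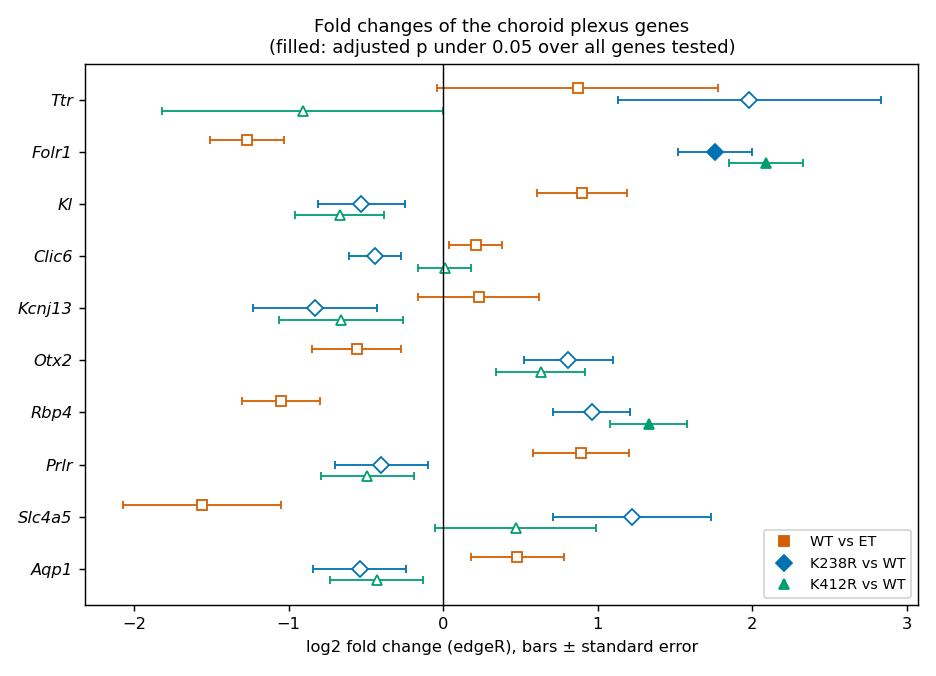
Log2 fold change (x axis) of each of the 10 genes (y axis) in WT against ET, K238R as labelled against WT and K412R against WT, with bars of ± 1 standard error from edgeR and filled symbols for an adjusted p under 0.05. The filled symbols are Folr1 in K238R against WT and in K412R against WT, and Rbp4 in K412R against WT. Ttr has the longest bars.

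K412R teratomas and those labelled K238R were also compared with ET directly and with each other. No gene of the 10 passed the adjusted threshold in K238R against ET or in K412R against ET, where 0% of all genes did, or in K412R against K238R, where 0.0217% did, all in edgeR. DESeq2 gave 0, 0 and 1 (Ttr), against 0.0761%, 0.542% and 2.11% of all genes. By the 2-fold criterion Ttr was higher in K238R than in ET (0.951% of all genes), Slc4a5 was lower in K412R than in ET (1.59%) and Ttr was lower in K412R than in K238R (2.52%). Both results on Ttr were lost without K238R replicate 2. That on Slc4a5 held in 5 of the 12 leave-one-out fits and not in those without ET replicate 1 or 3, K238R replicate 3, WT replicate 2 or any K412R replicate. At an unadjusted p under 0.05 the edgeR fit gave 1 gene in K238R against ET (5.58% of all genes), 2 in K412R against ET (7.86%) and 2 in K412R against K238R (11.9%).

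Without ET replicate 2, edgeR called 6 of the 10 genes in WT against ET. Folr1 (adjusted p 0.00933), Rbp4 (0.0232) and Slc4a5 (0.022) were lower in WT, and Kl (0.0428), Prlr (0.0377) and Aqp1 (0.0467) were higher. The share of all genes called in the same comparison then rose to 31%, so such calls were common over the whole table. Without WT replicate 1 the calls were Folr1, Rbp4 and Slc4a5, against 6.93% of all genes. With both left out 5 genes were called in WT against ET, against 37.5% of all genes, and 4 in K238R against WT, against 11.3%. Folr1 was among the calls in each of these settings.

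Across the 12 libraries the 10 genes did not rise and fall together. The 45 pairs had Pearson's r of log2(CPM + 1) from -0.77 to 0.91 with a median of -0.03, and 22 were positive and 23 negative. After the group means were subtracted the median was -0.02, and 33 of 45 pairs kept their sign. Permutation tests with 100000 resamples and adjustment over the 45 pairs left 3 positive pairs and 1 negative pair under 0.05 by Pearson's r and 1 pair by Spearman's rho. The permutations shuffled all 12 libraries without regard to group, so differences between groups can also give a small p. The r within groups was not tested.

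Kl and Prlr formed the pair that passed by both measures, with r = 0.82 (permutation p 2.10e-04, adjusted 0.00495) and rho = 0.93 (permutation p 4.00e-05, adjusted 0.0018). Without WT replicate 2 and ET replicate 3, the libraries farthest from the median of Kl, r was 0.72, and within groups 0.61. Folr1 and Rbp4 had r = 0.91 (permutation p 2.20e-04, adjusted 0.00495) and rho = 0.73 (permutation p 0.00897, adjusted 0.107). The r of this pair dropped to 0.68 without WT replicates 2 and 3 and was also 0.68 within groups, so part of the pooled value lay in the low WT libraries. Otx2 and Rbp4 had r = 0.80 (permutation p 0.00231, adjusted 0.0346) and rho = 0.76 (permutation p 0.00528, adjusted 0.107), with 0.83 when WT replicate 3 and ET replicate 1 were left out and 0.84 within groups. Kl and Rbp4 were opposed, with r = -0.77 (permutation p 0.00308, adjusted 0.0346) and rho = -0.73 (permutation p 0.00954, adjusted 0.107), and -0.64 and -0.43 without the same 2 libraries as for Kl and Prlr and within groups.

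Ttr passed the adjusted threshold with none of the other 9 genes. Its r ran from -0.51 with Clic6 to 0.44 with Slc4a5, and the smallest adjusted permutation p was 0.368 for r and 0.481 for rho. The value with Slc4a5 was 0.69 within groups and fell to 0.10 without K238R replicate 2 and WT replicate 1. Folr1 and Otx2 came to r = 0.72 (permutation p 0.00926, adjusted 0.0694) and rho = 0.57 (permutation p 0.0556, adjusted 0.25), with r at 0.33 without WT replicates 2 and 3 and at 0.52 within groups.

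**Figure D3:**
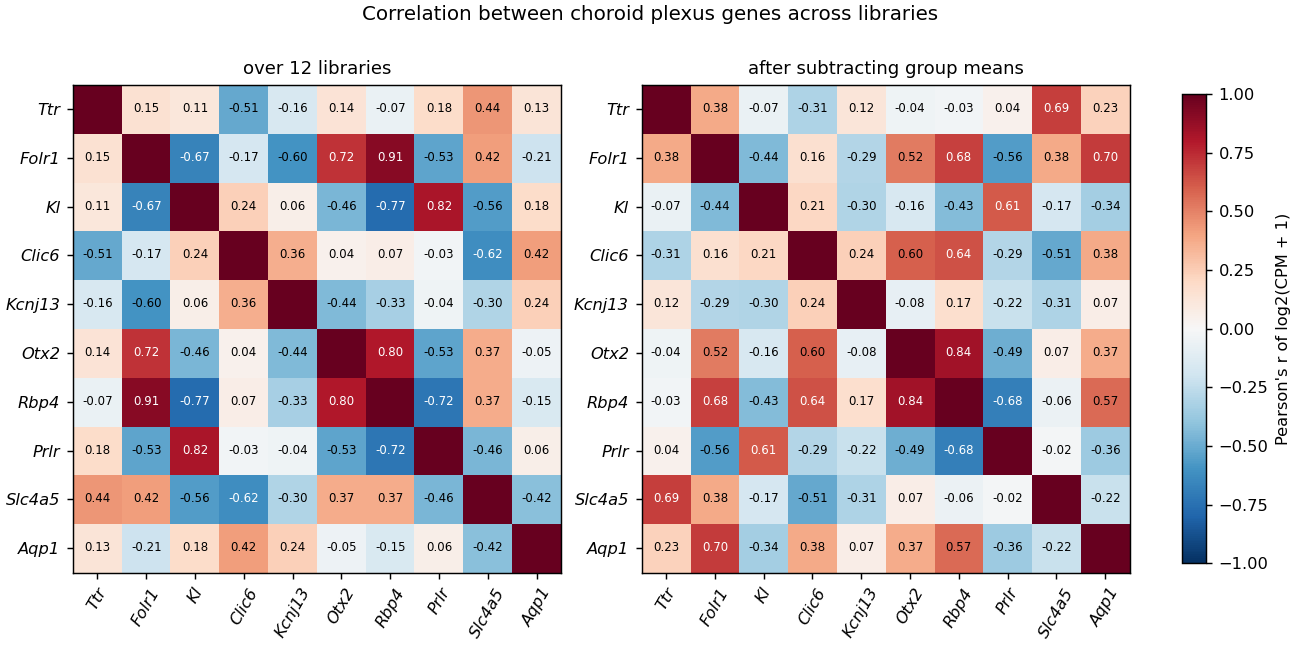
Pearson's r of log2(CPM + 1) for every pair of the 10 genes, over the 12 libraries (left) and after subtraction of group means (right), on a color scale from -1 to 1. Folr1, Otx2 and Rbp4 form a positive block (0.72 to 0.91 on the left), Kl and Prlr another (0.82), and Ttr reaches no more than 0.44 on the left.

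**Figure D4:**
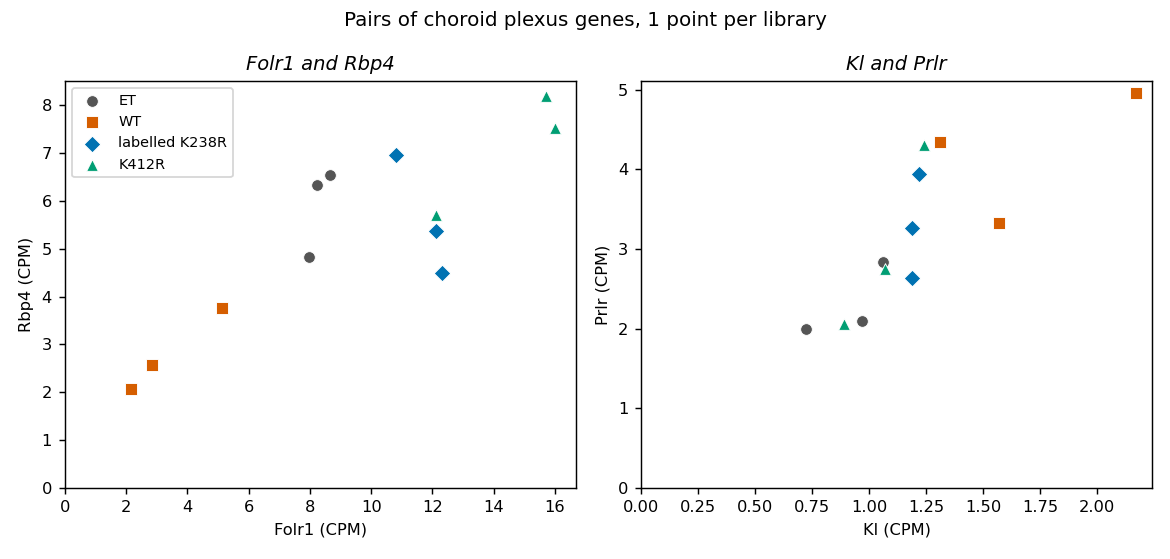
CPM of Rbp4 against Folr1 (left) and of Prlr against Kl (right), 1 point per library, with colors and symbols for ET, WT, K238R as labelled and K412R. The 3 WT libraries sit at the low end of the left panel, between 2.17 and 5.12 CPM of Folr1, and at the right of the other panel, between 1.31 and 2.17 CPM of Kl.

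Genes outside the 10 whose levels followed their mean standardized level most closely were Setd4 (r = 0.88), Stx3 (0.87), Ift70a1 (0.85), Aifm3 (0.83), Ddit4 (0.82), Pcdhgb2 (0.81), Surf1 (0.81), Chmp4b (0.80), Tpi1 (0.79) and Slc35d3 (0.79), over 12 libraries and among 16407 genes with a mean of at least 1 CPM. Of 36 further choroid plexus genes that could be ranked, 1 was among the 100 closest, and their median r was 0.21 against 0.07 for all genes. The 10 genes' own r with that mean ran from -0.09 (Prlr) to 0.60 (Otx2), so the mean stands for few of them.

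Foxa2, a marker of the floor plate at the ventral midline of the neural tube, was looked at after its values were seen because it was lowest in WT like Folr1 and Rbp4. It read 15 to 45.4 CPM in the WT libraries and 53 to 96.5 CPM in the other 9, with means of 82.5 CPM in ET, 28 in WT, 67.5 in K238R and 66.5 in K412R. Its log2 fold change was -1.55 ± 0.31 in WT against ET and 1.24 ± 0.31 in both K238R and K412R against WT. The edgeR adjusted p of 0.099, 0.104 and 0.0628 missed the threshold. Foxa2 also marks endoderm. The 16 liver and yolk sac genes, most of whose sum was Foxa2, came to 29.7 to 63.1 CPM in WT and 72.5 to 120 in the other groups, with Alb at 0 to 0.281 CPM. Of these genes 9 were tested, and none passed the adjusted threshold by edgeR in the 3 main comparisons. DESeq2 called 2, 1 and 1 of them, against 11%, 4.27% and 9.18% of all genes. The part of either tissue in the levels of Folr1 and Rbp4 was not tested.

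A further list of 40 genes of choroid plexus epithelium, of which 37 were tested, had 0 to 3 calls by edgeR in each main comparison. Over all genes edgeR called 0.0489% in WT against ET, 0.174% in K238R against WT and 2.02% in K412R against WT. The most abundant genes of the list, Atp1b1 (a sodium pump subunit, 334 CPM on average), Igfbp2 (208), Enpp2 (169), Ezr (169) and Krt8 (113), are shared with many other tissues. In K412R against WT 3 of the 37 rose by edgeR, Enpp2 (autotaxin, log2 fold change 1.37 ± 0.17, adjusted p 0.00637), Igfbp2 (0.79 ± 0.17, adjusted p 0.0403) and the coagulation factor gene F5 (1.14 ± 0.24, adjusted p 0.039), and none fell. The median of the list was 0.08 there, 0.08 in WT against ET and -0.22 in K238R against WT, and no gene passed in the latter comparisons in edgeR. An unadjusted p under 0.05 was found for 14 of the 37 genes in WT against ET, 10 in K238R against WT and 16 in K412R against WT, where all genes gave 29.1%, 17.6% and 22.8%. DESeq2 called 6, 7 and 9 of them, where it called 11%, 4.27% and 9.18% of all genes. At the 2-fold criterion 4 were higher and 2 lower in WT against ET, 1 and 3 in K238R against WT, and 3 and 5 in K412R against WT. Of all genes 6.08%, 5.28% and 5.05% met this criterion in either direction. Enpp2 averaged 174 CPM in ET, 96.2 in WT, 154 in K238R and 252 in K412R, lowest in WT like Folr1 and Rbp4. Igfbp2 (218, 142, 221 and 249 CPM in ET, WT, K238R and K412R) and F5 (20.6, 11.8, 23.4 and 26.3) also had their lowest mean in WT. The list as a whole did not share this pattern, as genes picked after their values were seen show. Htr2c (5.95, 13.5, 6.45 and 4.93 CPM in the same order) and Slc13a4 (2.88, 6.07, 2.03 and 2.09) had their highest mean in WT. So did Slc4a10 (21.5, 43.2, 26.3 and 21.5) and Trpm3 (19.9, 39.8, 26.8 and 18.3).

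The 24 genes of roof plate, cortical hem and choroid plexus induction, 22 of them tested, ranged from near 0 to means of 84.2 CPM. Gdf7, a roof plate ligand, had 0 to 4 counts per library and Wnt3a 3 to 16, and neither was tested. Lmx1b, a roof plate and hindbrain regulator, averaged 84.2 CPM, Foxj1, the regulator of motile cilia, 76.4 CPM, and Zic1, a dorsal neural tube factor, 56.7 CPM. The bone morphogenetic protein gene Bmp7 rose in K412R against WT by 0.62 ± 0.14 on the log2 scale (edgeR adjusted p 0.0449), and no other gene of the list passed in edgeR in the main comparisons. An unadjusted p under 0.05 was found for 3 genes in WT against ET, 3 in K238R against WT and 5 in K412R against WT, and DESeq2 called 1, 0 and 3. Over all genes the shares were 29.1%, 17.6% and 22.8% at the unadjusted p, and 11%, 4.27% and 9.18% by DESeq2. The list's median log2 fold change was 0.22 in WT against ET, 0.07 in K238R against WT and 0.24 in K412R against WT.

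Markers of other tissues that share these genes were checked as summed levels. Over all genes edgeR called 0.0489% in WT against ET, 0.174% in K238R against WT and 2.02% in K412R against WT. In the same order 29.1%, 17.6% and 22.8% of all genes had an unadjusted p under 0.05, and DESeq2 called 11%, 4.27% and 9.18%. The 14 genes of retinal pigment epithelium and pigment cells summed to 14.1 to 20.6 CPM over all groups, with Rpe65 at 0 to 2 counts, and 1 of the 7 tested, Rlbp1, fell in K412R against WT (-1.77 ± 0.37, edgeR adjusted p 0.0378). The 13 kidney tubule genes summed to 59.8 to 84.6 CPM, with no call in 8 tested by edgeR (1 or 2 at an unadjusted p under 0.05, and at most 1 by DESeq2 in each comparison). The 7 pituitary and placental hormone genes summed to 3.31 to 9.71 CPM, and placental Prl3b1, at 0 to 32 counts, was higher in K412R than in WT (adjusted p 0.0449). The 11 genes of ependyma and motile cilium summed to 391 to 396 CPM in WT and 224 to 444 elsewhere, with a median log2 fold change of 0.59 in WT against ET, -0.62 in K238R against WT and -0.24 in K412R against WT. Dnah9 alone passed in edgeR, higher in K412R than in WT (0.52 ± 0.09, adjusted p 0.0214), while the other 10 lay below 0 there. An unadjusted p under 0.05 was found for 6, 7 and 1 of the 11 genes in the same order of comparisons (29.1%, 17.6% and 22.8% of all genes). DESeq2 called 2, 3 and 1 (11%, 4.27% and 9.18% of all genes).

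Lists of the main cell states gave no call by edgeR among 8 pluripotency, 10 neural progenitor and 9 neuron genes. In WT against ET 5, 3 and 5 of them had an unadjusted p under 0.05, against 29.1% of all genes. DESeq2 called 1, 1 and 2 there, against 11% of all genes. In K412R against WT, 7 neuron genes had an unadjusted p under 0.05 and DESeq2 called 5, against 22.8% and 9.18% of all genes. Pluripotency genes summed to 9.7 to 92 CPM in WT, 90 to 210 in ET, 52.7 to 86.9 in K238R and 62 to 75.5 in K412R, with the highest WT value in the range of the other groups. Neuron genes summed to 3020 to 3986 CPM in WT, 2209 to 3258 in ET, 2896 to 3536 in K238R and 2231 to 2615 in K412R, and neural progenitor genes to 739 to 1010 CPM over all groups. The part of these differences in tissue makeup in the levels of the 10 genes was not tested.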

How the data were processed

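Whole teratomas were sequenced with the CORALL RNA-seq V2 kit after poly(A) selection of mRNA from total RNA. The deposited files hold estimated counts per gene, 1 file per library. The authors' processing notes name fastp, STAR, Salmon, GATK and the build GRCm39, and carry no versions. The estimated counts were rounded to whole numbers, and CPM is each count divided by the library total, which ran from 16957677 to 18546100. No row lacked a gene name. The noncoding RNA gene Gm26917 took 7.47% to 13.9% of the counts.

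Groups came from the sample titles. Genes passing filterByExpr (18405) were fitted with edgeR 4.0.16 in R 4.3.3 (TMM, quasi-likelihood test, all 12 libraries, 1 mean per group) and Benjamini-Hochberg adjusted over all of them. DESeq2 1.42.0 and the other settings are alternatives. On simulated counts for WT against ET, 84.9% of genes changed 4-fold were recovered over 18161 genes, with 6 false among 175 calls. No simulated library stood apart as ET replicate 2 and WT replicate 1 did. The rate therefore checks the fit only, and the power of the real comparison was not tested. Nothing says whether libraries of a group came from separate mice, so p-values measure the spread between these libraries only. Whether same-numbered libraries of different groups are paired could not be settled, and the main fit used no pairing.

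The 10 genes and all lists were chosen with earlier results of these data known. Named were all 10 genes, and from the lists those past the adjusted threshold and the 3 or 5 most abundant. Kcne2, Tmem72, Slc16a8, Sostdc1, Calml4, Htr2c, Slc13a4, Slc4a10, Trpm3, Gdf7, Wnt3a, Alb, Apoa1 and Rpe65 were added after their values were seen. Correlations used a pseudocount of 1 CPM. Counting intervals cover counting error only. Promoters came from a table on GRCm38.p6, and no coordinate was moved between builds. Transcript lengths are those of GENCODE M21.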

Additional observations from a re-analysis of the deposited data

How the results depend on the processing

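Of the fold changes of single genes under the alternatives, 558 kept their direction and side of the threshold, 25 came to pass it, 10 ceased to and 7 changed sign. Genes past the adjusted threshold in WT against ET numbered 0 and became 3 with DESeq2, 1 without the low-count filter, 3 with the replicate block, 5 with ET replicate 2 and WT replicate 1 both left out, and 0 to 6 when libraries were left out singly. In K238R against WT the 1 became 2 with DESeq2 and 4 with both left out, and 0 to 1 singly. In K412R against WT the 2 became 1 to 2 singly. In K412R against ET the 0 became 1 with both left out, and in K412R against K238R the 0 became 1 with DESeq2. By the 2-fold criterion the 3 in WT against ET became 5 with both left out and 1 to 4 singly, and the 3 in K238R against WT became 6 with both left out, 1 with the replicate block and 1 to 6 singly. The single genes in K238R against ET became 0 to 2, in K412R against ET 0 to 1 and in K412R against K238R 0 to 1 singly, and the replicate block gave 0 in K412R against ET. Signs turned for Ttr in WT against ET (-0.32 with both left out, -0.10 to 1.21 singly) and in K412R against WT (0.06 with both left out, -1.25 to 0.06 singly), for Kcnj13 in WT against ET (-0.08 to 0.43 singly) and for Clic6 in K412R against WT (-0.11 to 0.13 singly). The cause was not tested.

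Deviations from group means correlated at -0.37 to 0.53 between same-numbered libraries (median 0.12) and -0.57 to 0.51 between others (median -0.06). These ranges overlap, so they cannot settle whether the numbers in the titles pair the libraries. With the replicate block the share of all genes called in WT against ET rose from 0.0489% to 4.98%. The alternatives with both libraries left out and with robust dispersion were chosen after seeing the data. Kl, Slc4a5, Kcnj13 and most Ttr values rested on 7 to 75 counts per library, and how small a difference this depth could show was not tested.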
